A study of Macaca fascicularis with 16 samples.

Results

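The genes described here are PDGFRB, AFAP1L2, PCDH1, PRR5L, CLNK, FAM59A and APOBEC3F. They are 7 of the 23602 gene symbols counted in blood mononuclear cells of cynomolgus macaques. They were selected on measured values: each was lower 30 minutes after dosing than before it in 4 of 4 animals, and none is in the usual lists of natural killer (NK) cell genes. The fall at 30 minutes is therefore how the genes were found, and it is given below as a description with no test. The questions were how the genes stood at the 4 times and how their levels moved with those of NK-cell genes.

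The animals were 4 Mauritian-origin cynomolgus macaques, named LG04, LG11, LG12 and LG15, and each was bled before NKTT320 (the pre-treatment group) and 30 minutes, 2 hours and 1 day after it. NKTT320 is an antibody directed at the invariant receptor carried by invariant NKT cells, a small T-cell population specific for CD1d-bound lipids. Total RNA of unfractionated mononuclear cells was sequenced in 16 libraries, 4 per time. All 4 animals received the antibody and untreated animals were not analysed here, so dosing, elapsed time and repeated bleeding cannot be told apart.

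NK cells are lymphocytes that kill target cells by releasing granules of perforin, granzymes and granulysin, under the balance of activating and inhibitory surface receptors. The 7 genes belong to several unrelated families. PDGFRB encodes a receptor tyrosine kinase for platelet-derived growth factors, best known from pericytes and fibroblasts, and PCDH1 encodes a protocadherin, a cell-adhesion protein. CLNK, FAM59A and AFAP1L2 encode adaptors that link receptors or tyrosine kinases to downstream signalling. PRR5L encodes a protein that binds mTOR complex 2, and APOBEC3F a cytidine deaminase that restricts retroviruses.

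Levels are given as normalised CPM, that is CPM (counts scaled to library size) adjusted by the trimmed mean of M values (TMM) so that libraries with much globin RNA can be set beside the others. Changes are differences of log2 normalised CPM with a prior count of 2, taken within each animal and given as mean ± SD over the 4 animals. Totals ran from 1417467 to 8582852 counts, and 3 counts corresponded to 0.352 to 1.97 normalised CPM. Globin genes took 0.025% to 48.7% of the counts. By chi-square per gene, the 1 day library of LG04 was nearest to LG15 at 1 day (8.36). Its values against its own animal's other 3 libraries were 67.2 to 118. LG15 at 1 day was likewise further from its own animal's other libraries (27.0 to 106). LG04 before dosing was nearer to LG15 at 2 hours (26.0) than to any other LG04 library (64.4 to 132). The measure also grows with depth and cannot tell which labels, if any, are wrong. It covers all genes, so abundant RNA can weigh most. At 1 day globin took 13.6% of the counts of LG04 and 20.8% of those of LG15. The platelet genes PPBP and ITGA2B were highest at 1 day in LG04 and LG15 respectively. The part of globin and platelet RNA in the nearness was not tested. All labels were kept. The 1 day changes of each gene, the list means at 1 day and the links to marker lists over later libraries are also given without the 1 day library of LG04. That omission does not settle the doubt about the other libraries.

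Among the 7 genes, all were lower at 30 minutes in 4 of 4 animals by selection, as were 510 of the 11545 genes tested (4.42%). The mean change ran from -0.57 for PRR5L to -1.21 for CLNK. Levels at 30 minutes lay below every pre-treatment level for PDGFRB, AFAP1L2, PCDH1, FAM59A and APOBEC3F, which held for 53 of the genes tested (0.459%). Because that contrast chose the genes, nothing is read from either count. With CPM on library totals APOBEC3F overlapped (35.3 at the highest 30 minute level, 29.6 at the lowest pre-treatment level). The 4 of 4 condition does not by itself give these 7. In all, 134 genes, NK-cell genes among them, were lower in 4 of 4 animals with a fitted fall at least that of PRR5L. How the 7 were picked from these is not given here. Among genes with such a fall, LINC00260 and HIST1H2AI came nearest to the condition without meeting it. LINC00260 changed by 0.01 in LG11 and HIST1H2AI by 0.03 in LG04, both being lower in the other 3 animals. Of the 7, those nearest to the edge of the condition were APOBEC3F, with its smallest fall in LG11 (-0.41), and PRR5L, with its smallest in LG15 (-0.46).

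**Figure D1:**
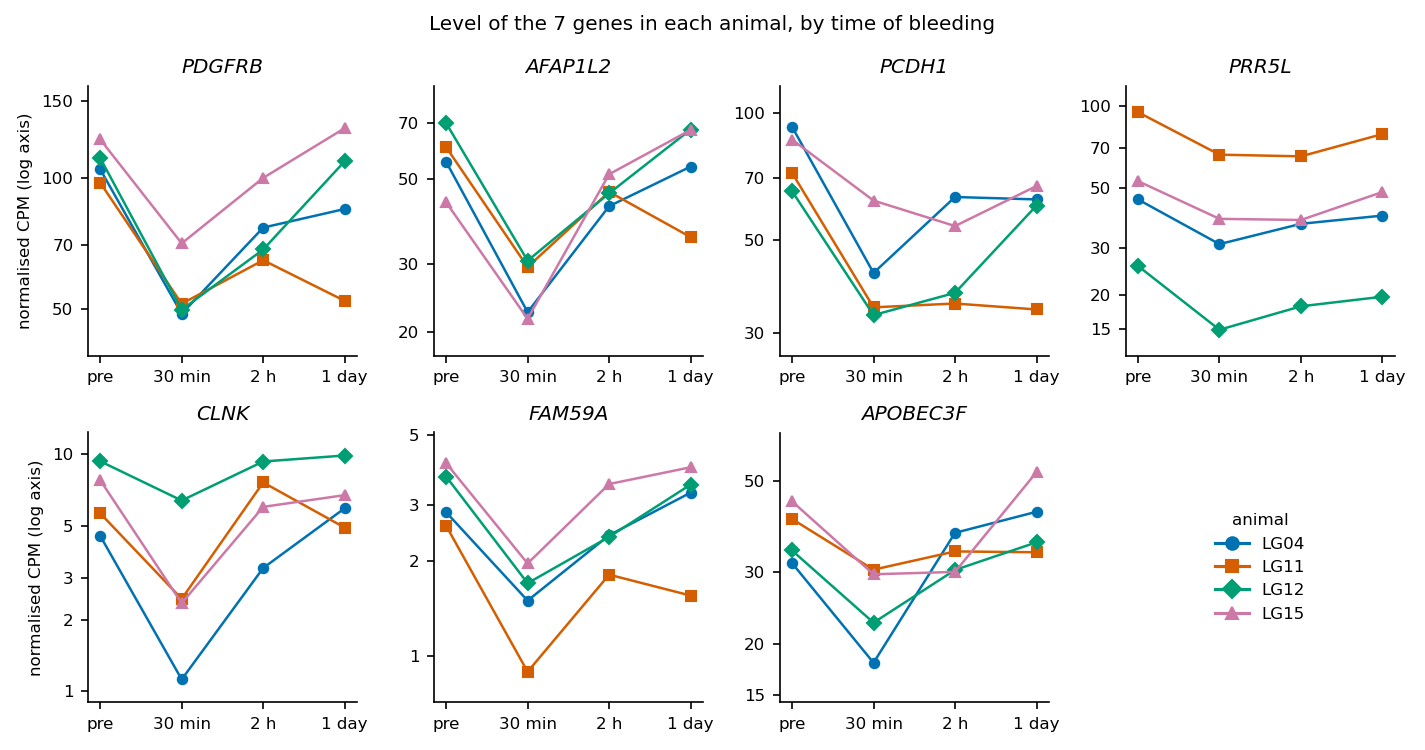
Normalised CPM (log axis) of each gene at the 4 times, evenly spaced, with 1 line per animal. In each panel every animal is lower at 30 minutes than before dosing, and in the AFAP1L2, CLNK and FAM59A panels every animal is higher again at 2 hours, while the PRR5L lines keep the order of the animals.

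PDGFRB was the most abundant of the 7 by count. In LG04, LG11, LG12 and LG15 it stood at 105, 97.4, 111 and 122.5 normalised CPM before dosing and at 48.7, 51.3, 49.7 and 70.7 at 30 minutes. At 2 hours the values were 76.8, 64.6, 68.4 and 99.9, and at 1 day 84.8, 52.1, 109 and 130.0. Every animal was at its lowest at 30 minutes, and LG11 alone was back near that level at 1 day. The log2 change from pre-treatment was -0.99 ± 0.17 at 30 minutes, -0.51 ± 0.18 at 2 hours and -0.28 ± 0.44 at 1 day (SD, n = 4). Time order was pre-treatment, 1 day, 2 hours, 30 minutes. Only the step from 30 minutes up to 2 hours (0.48 ± 0.13) was larger than the SD over animals.

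Markers of the stromal cells that usually carry PDGFRB were scarce in the same libraries. Of 9 stromal and pericyte markers, 6 (COL1A1, COL1A2, COL3A1, LUM, ACTA2 and RGS5) had at most 3 counts in any library, and 2 passed the filter. The summed level of the list was 42.8 to 52.7 normalised CPM before dosing, 30.6 to 58.5 at 30 minutes, 37.7 to 73.4 at 2 hours and 29.4 to 63.2 at 1 day. The tested ones were CSPG4, a proteoglycan of pericytes, and THY1, a surface glycoprotein. THY1 was lower at 30 minutes than before dosing in 4 of 4 animals, with mean levels of 29.65, 19.95, 29.63 and 30.4 normalised CPM at the 4 times, and CSPG4 was lower in 2. The mean of the pair had r of 0.60 with PDGFRB over the 16 libraries centred on each animal, and 0.86 over the 8 libraries of 2 hours and 1 day. Their part in the PDGFRB values was not tested.

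PCDH1 stood furthest below its pre-treatment level at 2 hours and at 1 day. Before dosing the 4 animals, in the same order, stood at 92.8, 72.2, 65.3 and 86.6 normalised CPM, and at 30 minutes at 41.8, 34.6, 33.2 and 62.0. At 2 hours they stood at 63.3, 35.3, 37.5 and 54.0, and at 1 day at 62.4, 34.2, 60.4 and 67.2. LG11 hardly moved after 30 minutes, LG04 had risen by 2 hours, and LG12 rose between 2 hours and 1 day. The log2 change from pre-treatment was -0.91 ± 0.30, -0.76 ± 0.20 and -0.53 ± 0.41 at the 3 successive times. In the order pre-treatment, 1 day, 2 hours, 30 minutes, the gap between pre-treatment and 1 day exceeded its SD, and the 2 lower gaps did not (0.23 ± 0.34 and 0.15 ± 0.33).

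AFAP1L2, an actin-associated adaptor that is phosphorylated by Src-family kinases, had the second largest mean fall at 30 minutes, after CLNK. The pre-treatment values were 55.5, 60.6, 69.97 and 43.5 normalised CPM, and those at 30 minutes were 22.5, 29.5, 30.6 and 21.6. By 2 hours the animals stood at 42.5, 46.3, 45.9 and 51.5, and by 1 day at 53.9, 35.3, 67.3 and 67.2. All 4 animals had risen by 2 hours, and LG15 then stood above its own pre-treatment level. Changes from pre-treatment were -1.12 ± 0.14 at 30 minutes, -0.28 ± 0.36 at 2 hours and -0.06 ± 0.57 at 1 day. Time, which includes the fall by which the gene was chosen, accounted for 75.5% of the variance of its log2 level and the animal for 5.7%. Of its order pre-treatment, 1 day, 2 hours, 30 minutes, only the last step (0.84 ± 0.30) exceeded the SD.

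CLNK, an adaptor of the SLP-76 family known from NK cells and mast cells, was counted sparsely, with 6 to 63 counts per library. Its normalised CPM was 4.53, 5.63, 9.33 and 7.77 before dosing and 1.12, 2.46, 6.38 and 2.36 at 30 minutes. It was 3.31, 7.60, 9.31 and 5.995 at 2 hours and 5.91, 4.90, 9.87 and 6.72 at 1 day. LG12 was highest at every time, and its 30 minute value lay above the pre-treatment values of LG04 and LG11. Within animals the change was -1.21 ± 0.53 at 30 minutes, -0.09 ± 0.37 at 2 hours and 0.01 ± 0.26 at 1 day. Its order was 1 day, pre-treatment, 2 hours, 30 minutes; the upper 3 neighbours lay within their spread, and 30 minutes lay 1.12 ± 0.42 below 2 hours.

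FAM59A, now named GAREM1, encodes an adaptor that binds GRB2 downstream of the epidermal growth factor receptor, and was the least abundant of the 7, with 4 to 22 counts per library. It stood at 2.85, 2.58, 3.69 and 4.07 normalised CPM before dosing and at 1.498, 0.893, 1.70 and 1.96 at 30 minutes. Later values were 2.41, 1.81, 2.38 and 3.50 at 2 hours and 3.29, 1.55, 3.48 and 3.95 at 1 day. Each animal fell and rose again by 2 hours, and LG11 was lowest at all 4 times. The changes were -0.96 ± 0.18, -0.35 ± 0.18 and -0.13 ± 0.33. With so few counts the prior count shrinks these differences, and the fitted change at 30 minutes was -1.14. Its order was that of PDGFRB, and only the step from 30 minutes to 2 hours (0.61 ± 0.16) exceeded the SD.

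PRR5L varied more between animals than between times, unlike the other 6. The values were 45.3, 95.3, 25.7 and 52.9 normalised CPM before dosing, 30.9, 66.3, 14.9 and 38.3 at 30 minutes, 36.8, 65.4, 18.2 and 38.0 at 2 hours, and 39.4, 79.0, 19.7 and 48.2 at 1 day. LG11 was highest and LG12 lowest at every time, so the ranges of all times overlapped. Shares of the variance due to time include the fall by which the genes were chosen, and those over all genes are not given here. For the log2 level of PRR5L the animal accounted for 90.4% of the variance and time for 8.9%. The other genes had 5.7% to 39.5% and 48.7% to 75.5%. The mean fall of PRR5L at 30 minutes was the smallest of the 7, and its changes were even between animals: -0.57 ± 0.14, -0.45 ± 0.11 and -0.24 ± 0.10. In the order pre-treatment, 1 day, 2 hours, 30 minutes, the last gap (0.12 ± 0.16) was within its spread.

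APOBEC3F stood at 31.5, 40.4, 33.8 and 44.6 normalised CPM before dosing and at 17.98, 30.4, 22.5 and 29.6 at 30 minutes. It stood at 37.4, 33.6, 30.3 and 30.0 at 2 hours and at 42.1, 33.5, 35.4 and 52.6 at 1 day. LG04 had already passed its own pre-treatment level by 2 hours, and 3 of the 4 animals had by 1 day. The changes were -0.59 ± 0.16, -0.19 ± 0.33 and 0.11 ± 0.29. No neighbouring times in its order (1 day, pre-treatment, 2 hours, 30 minutes) differed by more than the SD over animals. Paralogs of the APOBEC3 cluster are close in sequence, so how reads were shared among them is uncertain.

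Per length, the levels of PDGFRB, PCDH1, PRR5L and AFAP1L2 lay close together. Mean FPKM (a level scaled to gene length and library size, as the authors deposited it) over the 16 libraries was 13.8 for PDGFRB, 13.7 for PCDH1, 12.1 for PRR5L, 11.8 for AFAP1L2, 7.93 for APOBEC3F and 3.72 for CLNK. FAM59A was the lowest at 0.364.

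The later times share their pre-treatment or 30 minute libraries with the selection, so their values stand beside it as a description. At 2 hours 4 of the 7 were still below pre-treatment in 4 of 4 animals, namely PDGFRB, PCDH1, PRR5L and FAM59A (6.52% of all genes tested). At 1 day this held for PCDH1 and PRR5L (9.09% of all genes), and over the 3 animals other than LG04 for PCDH1, PRR5L and FAM59A (13.3% of all genes). From 30 minutes to 2 hours, 5 were higher in 4 of 4 animals (8.54% of all genes): PDGFRB, AFAP1L2, CLNK, FAM59A and APOBEC3F. From 30 minutes to 1 day, 6 were higher in 4 of 4 animals (7.73% of all genes), PCDH1 being the exception. Without LG04, 6 were higher in 3 of 3 animals (11.5% of all genes). On the mean of log2 values, the 2 hour level was 59.0% of pre-treatment for PCDH1, 70.5% for PDGFRB, 73.2% for PRR5L, 78.6% for FAM59A, 82.2% for AFAP1L2, 88.0% for APOBEC3F and 94.0% for CLNK. The 1 day level ran from 69.3% for PCDH1 to 108% for APOBEC3F. Over the 3 animals other than LG04 the log2 change at 1 day was -0.28 ± 0.54 for PDGFRB, -0.07 ± 0.70 for AFAP1L2, -0.52 ± 0.50 for PCDH1, -0.26 ± 0.12 for PRR5L, -0.10 ± 0.16 for CLNK, -0.24 ± 0.32 for FAM59A and 0.01 ± 0.26 for APOBEC3F. The CLNK mean thus went from 0.01 to -0.10, each within its SD, and its fitted change with all libraries was already -0.04. The other 6 kept their signs.

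The comparison of 1 day with 2 hours is between libraries that the selection did not use, and it was tested. Its SE, p and intervals come from 1 fit of all 16 libraries, including those the selection used. The spread behind them is therefore not independent of the selection. None of the 7 genes passed an adjusted p of 0.05 in edgeR's quasi-likelihood test, where 12 of the 11545 genes passed (0.104%; 4 higher and 8 lower) and 1455 had an unadjusted p under 0.05. DESeq2 called 121 genes and again 0 of the 7. The fitted log2 change was 0.24 ± 0.17 (SE) for PDGFRB (adjusted p = 0.62 in edgeR), with a 95% interval of -0.12 to 0.60. It was 0.28 ± 0.18 for APOBEC3F (adjusted p = 0.57 in edgeR, interval -0.11 to 0.68) and 0.21 ± 0.12 for PRR5L (adjusted p = 0.49 in edgeR, interval -0.04 to 0.46). The intervals of AFAP1L2 (-0.20 to 0.69), PCDH1 (-0.15 to 0.62), CLNK (-0.62 to 0.65) and FAM59A (-0.80 to 1.2) also held 0. PRR5L was higher in 4 of 4 animals, as was 11.3% of all genes, and none of the other 6 was. LG11 was lower at 1 day than at 2 hours for the other 6, and no other animal was lower except LG04 for PCDH1 (-0.02). In simulated libraries of these depths this test found 42 of 100 genes changed by log2 1 and 89 of 100 changed by log2 2. The changes fitted here were smaller than either size. The changed genes were drawn from those with a mean log2 CPM above 2, which leaves out genes as sparse as FAM59A. No differences between animals were simulated.

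**Figure D2:**
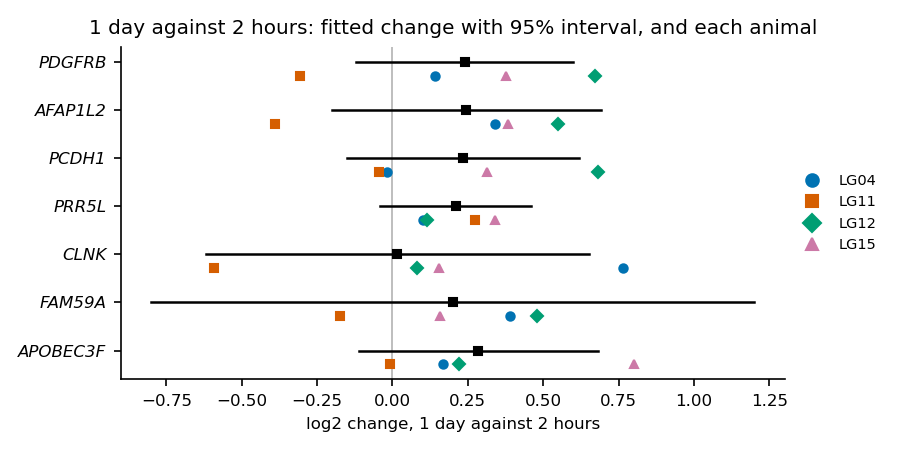
Fitted log2 change of each gene at 1 day against 2 hours (black squares, lines for the 95% interval) with each animal's own difference beneath it (coloured symbols). Each interval crosses 0, and LG11 is the lowest animal for every gene but PRR5L.

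NK-cell markers were also lower at 30 minutes, and at 2 hours their mean stood near pre-treatment. Of 12 listed NK-cell markers 10 passed the filter on low counts, and NCR3 had no count in any library. At 30 minutes 10 of 10 were lower, with a median log2 change of -0.78, against 0.02 over all genes tested. Of the 10, 9 were lower in 4 of 4 animals, against 4.42% of all genes tested. The summed level of the list was 299.5 to 502 normalised CPM before dosing, 195 to 313 at 30 minutes, 273 to 491 at 2 hours and 261 to 422 at 1 day. The mean change of the list was -0.69 ± 0.20 at 30 minutes, 0.02 ± 0.30 at 2 hours and -0.23 ± 0.14 at 1 day. For the 7 genes it was -0.91 ± 0.10, -0.37 ± 0.08 and -0.16 ± 0.28.

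The 3 most abundant NK-cell markers did not share 1 course. IL2RB, a chain of the interleukin 2 and 15 receptors, went from 208 ± 62.6 normalised CPM before dosing to 124 ± 31.7, 145 ± 48.5 and 142 ± 41.3 at the 3 successive times (SD, n = 4). KLRD1, the CD94 receptor chain, went from 64.2 ± 21.6 to 47.3 ± 14.7, 75.9 ± 29.5 and 59.7 ± 16.5. KLRF1, an activating receptor, went from 34.6 ± 6.01 to 24.2 ± 2.94, 34.3 ± 9.85 and 30.6 ± 5.22. IL2RB stayed below its mean pre-treatment level at 2 hours, while KLRD1 and KLRF1 stood near or above theirs. On group means, TBX21 and IFNG stayed low at 2 hours as PCDH1 did. TBX21 had 50.3 ± 13.2, 27.2 ± 2.90, 29.0 ± 4.05 and 45.3 ± 7.33 normalised CPM at the 4 times, and IFNG 6.46 ± 3.14, 2.23 ± 1.36, 2.06 ± 1.46 and 3.29 ± 0.963. The IFNG means at 30 minutes and 2 hours lay near the highest level that 3 counts stood for (1.97), so its course is uncertain.

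At 2 hours the NK-cell mean was above pre-treatment in LG04 and LG11 (0.25 and 0.24), at -0.02 in LG12 and at -0.38 in LG15, whereas the 7 genes were below it in all 4 animals (-0.29 to -0.47). Other lists had moved by then as well. On the mean, 13 of 14 T-cell markers (median -0.36) and 10 of 10 B-cell markers (median -0.40) were lower, 7 and 1 of them in 4 of 4 animals. All 10 of 10 monocyte markers were higher (median 1.44), 7 of them in 4 of 4. Of all 11545 genes tested, 753 were lower (6.52%) and 931 higher in 4 of 4 animals. The part of these lists in the values of the 7 genes was not tested. The 7 genes lay 0.40 ± 0.31 lower than the NK-cell mean in this change, but LG15 did not share the gap (0.05). PCDH1, PRR5L and APOBEC3F lay below the NK-cell mean in 4 of 4 animals, APOBEC3F by only -0.01 in LG04. The share of all genes that did so is not given here. The pre-treatment libraries were used to choose the 7 genes, so the selection can itself favour a lower 2 hour change for them. Nothing is read from this count. Between 2 hours and 1 day the NK-cell mean changed by -0.26 ± 0.35 and the mean of the 7 by 0.21 ± 0.27, each within its SD. Both fell in LG11 (-0.63 and -0.18) and both rose in LG15 (0.10 and 0.36). They had opposite signs in LG04 (-0.46 and 0.27) and LG12 (-0.03 and 0.40). The change of the 7 minus that of the NK-cell mean was 0.47 ± 0.19, a difference above 0 in 4 of 4 animals (0.26 to 0.73). Without LG04 that difference was 0.38 ± 0.11 over 3 animals. The NK-cell mean included NCAM1, with mean levels of 12.1, 12.6, 30.6 and 15.8 normalised CPM at the 4 times. At 2 hours 7 of the 10 NK-cell markers were below pre-treatment (median -0.04). From 2 hours to 1 day 9 of the 10 fell (median -0.12). The part of NCAM1 in the gaps between the 7 genes and the NK-cell mean was not tested. In bulk RNA, fewer cells of a type and less RNA per cell cannot be told apart.

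Cytotoxic granule genes were lower at 30 minutes too and stood nearer to the 7 genes at 2 hours. At the first time 10 of 11 were lower, with a median of -0.79, and GZMK alone was higher (0.48). Of the 11, 8 were lower in 4 of 4 animals, against 4.42% of all genes tested. The mean change of the list was -0.67 ± 0.19 at 30 minutes, -0.32 ± 0.27 at 2 hours and -0.24 ± 0.52 at 1 day. Over the 3 animals other than LG04 the 1 day change was -0.28 ± 0.63 for the granule genes, -0.24 ± 0.17 for the NK-cell markers and -0.21 ± 0.33 for the 7 genes. At 2 hours the change of the 7 genes minus that of the granule genes was -0.06 ± 0.33, with both signs among the animals. Both lists were lowest in LG11 at 1 day, at -0.58 for the 7 genes and -0.98 for the granule genes.

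**Figure D3:**
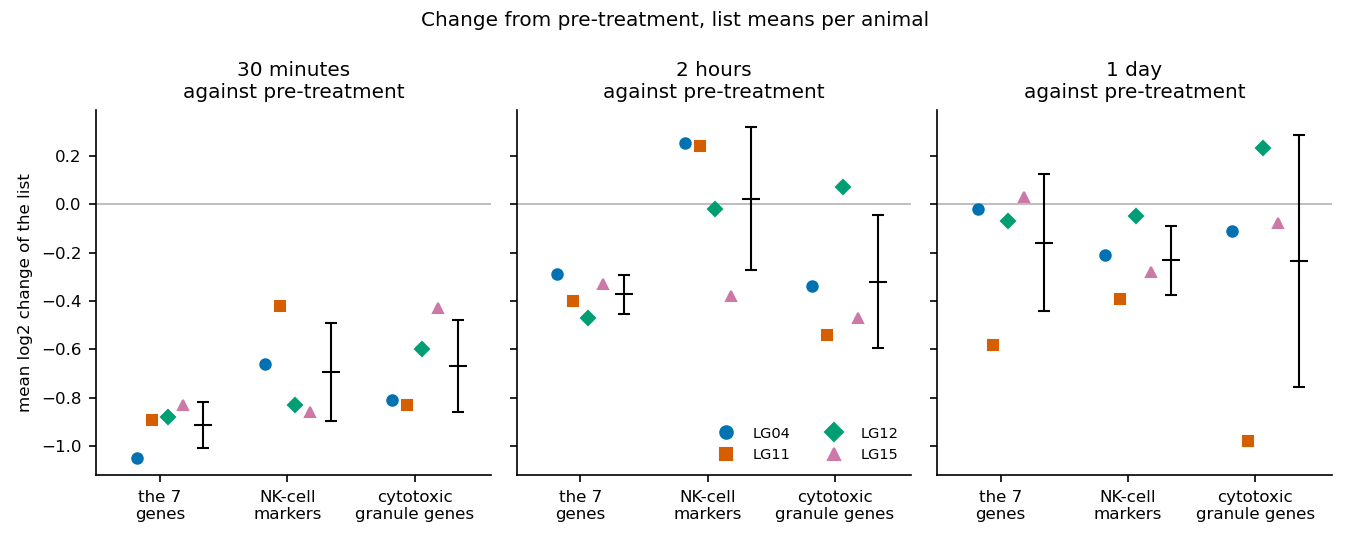
Mean log2 change from pre-treatment of the 7 genes, 10 NK-cell markers and 11 cytotoxic granule genes in each animal (symbols), with the mean and SD over 4 animals (black). At 30 minutes every symbol is below 0; at 2 hours the 7 genes remain below 0 in each animal while the NK-cell means of LG04 and LG11 are above it.

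Across the 16 libraries, each centred on its animal's mean, the level of each gene moved with the NK-cell mean. Pearson r was 0.77 for PDGFRB, 0.76 for AFAP1L2, CLNK and FAM59A, 0.72 for APOBEC3F, 0.59 for PRR5L and 0.58 for PCDH1. With the granule genes it was 0.89 for PDGFRB, 0.85 for PCDH1, 0.81 for FAM59A, 0.78 for AFAP1L2, 0.77 for APOBEC3F, 0.75 for PRR5L and 0.67 for CLNK. The points share 4 animals, the libraries and the 30 minute fall by which the genes were chosen, so these values describe the selection as much as the link. The mean of the 7 had r of -0.08 with T-cell markers, -0.40 with B-cell, -0.06 with monocyte, -0.45 with neutrophil, 0.17 with platelet, 0.01 with red-cell, -0.03 with basophil and mast-cell, -0.15 with dendritic-cell and 0.11 with endothelial markers. With the 2 tested stromal and pericyte markers it was 0.53, reaching 0.61 for AFAP1L2 and 0.60 for PDGFRB, and their part in these values was not tested.

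Over the 8 libraries of 2 hours and 1 day, which the selection did not use, the link to the NK-cell mean was weaker. There r ranged from -0.45 for CLNK to 0.43 for PCDH1, with 0.25 for PDGFRB, 0.31 for APOBEC3F and 0.11 to 0.17 for AFAP1L2, PRR5L and FAM59A. With the granule genes it was 0.74 for PCDH1, 0.73 for APOBEC3F, 0.595 for FAM59A, 0.59 for PDGFRB, 0.45 for AFAP1L2, 0.21 for PRR5L and -0.36 for CLNK. These 8 points were not centred and come from 4 animals, so they mix differences between animals with those between times. Platelet markers moved with several genes there as well: r was 0.82 for PCDH1, 0.76 for APOBEC3F and 0.62 for FAM59A. The 2 stromal and pericyte markers had r of 0.91 with FAM59A, 0.86 with PDGFRB, 0.80 with AFAP1L2 and 0.61 with PCDH1 over these libraries, and 0.75 with the mean of the 7. Other lists gave values as far from 0, such as -0.86 for PRR5L with B-cell, -0.81 for CLNK with red-cell and -0.80 for APOBEC3F with dendritic-cell markers. Without the 1 day library of LG04, r over the remaining 7 libraries ran from -0.45 to 0.46 with the NK-cell mean, -0.36 to 0.71 with the granule genes, -0.53 to 0.81 with platelet markers and -0.40 to 0.91 with stromal and pericyte markers. All 9 platelet markers were higher at 1 day than at 2 hours in 4 of 4 animals (median 2.07), as were 11.3% of all genes. Their summed levels were 168 to 5786 at 2 hours and 707 to 30850 normalised CPM at 1 day. The part of the platelet and other lists in the 1 day values was not tested. APOBEC3F also had r of -0.76 with neutrophil markers over 16 libraries. Neutrophil markers had a median of 0.57 at 30 minutes, 7 of 8 higher, and their part in its change was not tested.

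**Figure D4:**
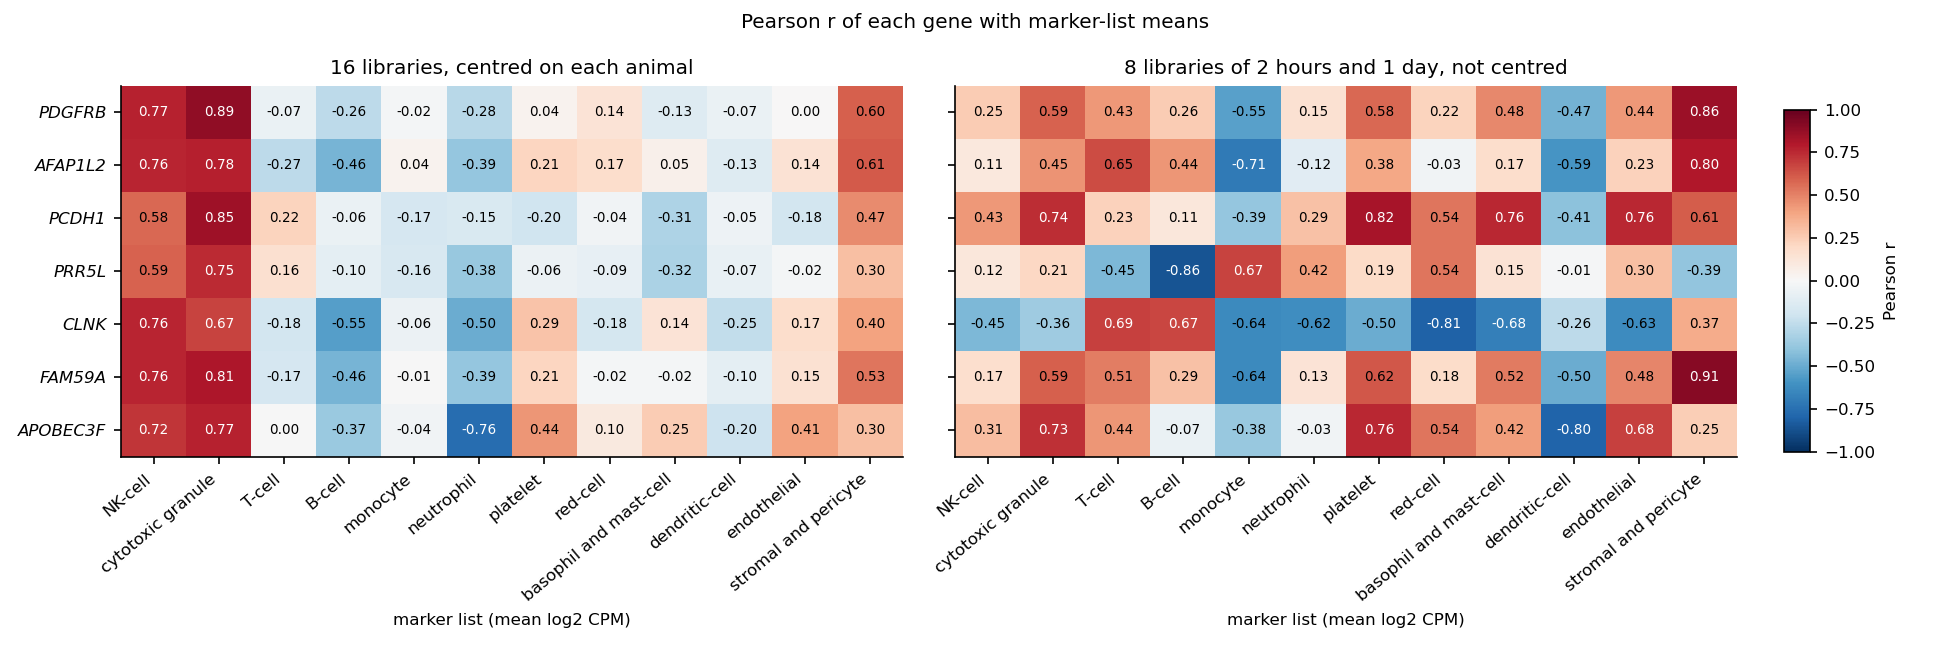
Pearson r between each gene's log2 normalised CPM and the mean of each marker list, over 16 animal-centred libraries (left) and over the 8 libraries of 2 hours and 1 day (right). On the left the NK-cell column runs from 0.58 to 0.77, the granule column from 0.67 to 0.89 and the stromal and pericyte column (2 genes) from 0.30 to 0.61. On the right the NK-cell column runs from -0.45 to 0.43 and the stromal and pericyte column from -0.39 to 0.91.

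PDGFRB, AFAP1L2 and FAM59A were most like one another. PDGFRB had r of 0.93 with both AFAP1L2 and FAM59A over the 16 centred libraries, and those adaptors 0.94 with each other; over the 8 later libraries the values were 0.93, 0.96 and 0.88. PCDH1 went with them (0.83, 0.69 and 0.85 over the 8). PRR5L did not, with r of -0.37, -0.44, -0.47 and -0.30 to PDGFRB, AFAP1L2, FAM59A and PCDH1 over the 8 libraries, after 0.72 to 0.88 over the 16. CLNK had its highest r with IL12RB2 (0.92), a chain of the interleukin 12 receptor, and GAB3 (0.90), a docking adaptor, which were -0.37 and -0.03 over the 8 later libraries. APOBEC3F was most like its paralog APOBEC3C (0.88, and 0.82 over the 8) and PDGFD (0.85, and 0.64).

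Of 11538 other genes, 15 had r of at least 0.8 with the mean of the 7 over the 16 libraries. The 8 highest were CD244 (0.91), a receptor of NK and cytotoxic T cells, granulysin GNLY (0.90), granzymes GZMH (0.90) and GZMB (0.83), the receptor gene KLRC2 (0.87), IL12RB2 (0.86), GAB3 (0.85) and TBX21 (0.85), which encodes T-bet. Over the 8 later libraries these ran from 0.26 for GAB3 to 0.83 for TBX21. Among NK-cell markers 9 of 10 reached 0.5 over the 16, and NCAM1 did not (0.01). How many of all genes reached 0.5 is not given here, while 60 reached 0.7. These values share the 30 minute fall by which the 7 were chosen. Over the 8 later libraries SH2D1B (0.76), EOMES (0.735) and IL2RB (0.65) reached 0.5. The other markers ran from -0.59 for NCAM1 to 0.32 for S1PR5. Granzyme and KLRC paralogs share close sequence, so their separate values are uncertain.

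Of 32 tested genes of the same pathways and families, 4 were lower in 4 of 4 animals at 30 minutes (12.5%, against 4.42% of all genes), and 3 of the 4 are APOBEC3 genes. The ligand PDGFD was lower at 30 minutes in 4 of 4 animals (-0.70 ± 0.39), and PDGFB, a platelet product, was not (0.36 ± 1.12); the other 4 of that list did not pass the filter. PDGFRA, the second receptor, had at most 4 counts in any library. AFAP1L1, the one AFAP1L2 relative that passed the filter, gave -0.40 ± 1.39. Of 7 mTOR complex 2 genes 7 were lower on the mean, with a median of -0.08, none was lower in 4 of 4 animals, and the PRR5L paralog PRR5 gave -0.34 ± 0.70.

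Of 12 genes of the SLP-76 adaptor circuit, which couples immune receptors to phospholipase C, none was lower in 4 of 4 animals at 30 minutes, and the median was -0.02. SLP-76 itself (LCP2) gave -0.06 ± 0.25, and BLNK, the B-cell member of the CLNK family, was higher in 4 of 4 animals (0.49 ± 0.37). Of 5 FAM59A partners none was lower in 4 of 4, with GRB2 at 0.05 ± 0.28. None of 9 other protocadherins passed the filter, their summed level being at most 3.37 normalised CPM. The APOBEC3 family was the one list with shared falls: APOBEC3B, APOBEC3C and APOBEC3G were lower in 4 of 4 animals, and APOBEC3A and APOBEC3H were not. APOBEC3C gave -0.42 ± 0.16 and APOBEC3G -0.49 ± 0.17. At 1 day against 2 hours edgeR called 0 genes of these lists past an adjusted p of 0.05.

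**Figure D5:**
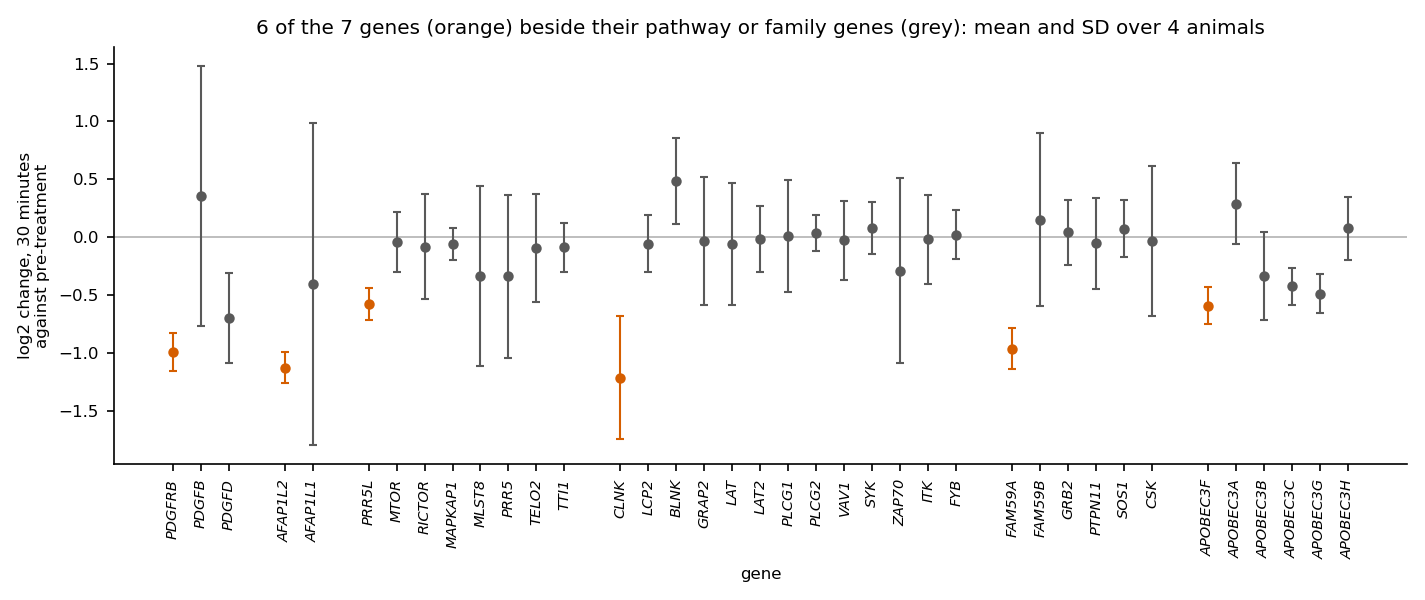
Log2 change at 30 minutes against pre-treatment for 6 of the 7 genes (orange) and the tested genes of their pathway or family (grey), as mean and SD over 4 animals. The orange genes were chosen for their fall in this contrast, so their low place is fixed by the selection. Among the grey points APOBEC3C lies at -0.42 and APOBEC3G at -0.49.

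By gene order in the macaque reference T2T-MFA8v1.1, where all 7 genes were found by symbol or synonym, the APOBEC3F neighbour APOBEC3G was the only tested adjacent gene lower at 30 minutes in 4 of 4 animals. The neighbours ABLIM1 (AFAP1L2), TRAF6 and COMMD9 (PRR5L), ZNF518B (CLNK), ARAP3 (PCDH1) and KLHL14 (FAM59A) were lower in 0 to 3 animals. The tested neighbours covered 6 of the 7 genes.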

How the data were processed

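Blood mononuclear cells of 4 macaques were sequenced at 4 times (single reads of 75 cycles, rRNA-depleted stranded total RNA, per the labels' protocols). The authors deposited whole-number counts per gene, not normalised, and FPKM. Tools listed in the submitters' processing notes are STAR, HTSeq, Trimmomatic, FastQC, edgeR and DESeq, with the human build GRCh37 (hg19). Macaque reads were thus counted on human gene models, and genes that diverge between the species can be undercounted. Not given in the sources used here are the strand setting, the annotation version and the FPKM program.

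The 24369 entries of each count table were joined to 23602 symbols. In a series-wide table the 2 hour column of LG04 held the 1 day values of LG04, so the tables per animal were used. No 2 libraries were alike within sampling noise (lowest chi-square per gene 4.14 of 120 pairs). From the deposited counts, TMM-normalised CPM and log2 CPM (prior count 2) were computed. Tests used edgeR 4.0.16 in R 4.3.3 (quasi-likelihood, filterByExpr, time and animal as terms, 16 libraries, 9 residual degrees of freedom) with Benjamini-Hochberg adjustment over 11545 genes at 0.05. DESeq2 1.42.0 was the alternative. SE and intervals were derived from the reported p-value. Counting floors cover counting error only. The fit was tested on simulated data (11403 genes, 3 false calls).

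Each animal was bled at all 4 times, which pairs the libraries: deviations from time means correlated within animals (median r 0.56, 23 of 24 pairs over 0.1, lowest 0.06). Without the animal block 0 genes were called, against 12.

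Named genes were the 7, their pathway lists, the 8 genes most like their mean, the 2 most like each, and the 2 just outside the selection. The genes and lists were chosen with earlier results of these data known. Pathway and marker genes given with values were otherwise chosen after their values were seen.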

Additional observations from a re-analysis of the deposited data

Results flagged for a closer look

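Of the 28 groups of 4 animals (7 genes at 4 times), 1 held an animal far from the other 3. LG15 had 70.7 normalised CPM of PDGFRB at 30 minutes, while LG04, LG11 and LG12 lay between 48.7 and 51.3. Chance alone marks about 1 in 20 such groups. LG15 was also the highest animal for PDGFRB at the other 3 times.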

How the results depend on the processing

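Of 91 alternatives to the summary values, 79 stayed within their limits. For the median changes the limit was the SD over animals, which was 0.28 for the 1 day change against pre-treatment. A wide SD lets a value change sign or come near 0 and still count as within. For genes called at 1 day against 2 hours (12), DESeq2 gave 121, no replicate block 0, omission of the 1 day library of LG04 6, omission of the 4 shallowest libraries 0, and leaving out each animal in turn 0 to 2; the cause was not tested, and 0 of the 7 were called under any of them. On library totals without TMM the median change of the 7 was -1.17 at 30 minutes (all genes -0.16, from 0.02) and -0.68 at 2 hours. The median r with NK-cell markers, 0.76, was 0.53 as Spearman's rho and 0.17 over the 8 later libraries. The median 1 day change against pre-treatment, -0.20, was 0.05 without LG11 and -0.24 without the 1 day library of LG04. The median at 1 day against 2 hours, 0.24, was 0.02 without the 4 shallowest libraries. These alternatives to the medians at 1 day counted as within the limits. The medians on library totals at 30 minutes and 2 hours, Spearman's rho and r over the 8 later libraries were outside them. At 1 day against 2 hours CLNK (0.01) turned to -0.006 in DESeq2, -0.007 with no filter, -0.15 without the 1 day library of LG04 and -0.395 without the 4 shallowest libraries, where APOBEC3F gave -0.022 and PCDH1 -0.079. Leaving out each animal in turn moved CLNK between -0.187 and 0.363. None was called. On library totals and on deposited FPKM, APOBEC3F at 2 hours and PDGFRB at 1 day joined the genes lower in 4 of 4 animals. Depth limits CLNK and FAM59A most. The 1 day values and links without the 1 day library of LG04, and the overlap on library totals, were added after seeing the data.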
